A study of Mus musculus with 18 samples.

Results

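Ribosome density (RD) compares the ribosome footprints on an mRNA with the amount of that mRNA, and the values described here are its log2 change in eIF2B-mutant mouse astrocytes after 24 hr of inflammatory cytokines. The members were all 12205 genes of the table of folds deposited by the authors, and 12204 of them had the RD, the mRNA and the footprint (RPF, ribosome-protected fragment) fold. Behind these folds stand 12 of the 18 libraries of the series, with 3 RNA-seq and 3 Ribo-seq libraries of untreated cells and as many of cells treated for 24 hr. All were primary mouse astrocytes of the genotype Eif2b5-R132H-R132H mutant, so the untreated controls carried the same mutation, and the 3 libraries of a group came from batches A, B and C. The cells were kept for 120 hr in all. Treatment was with 20 ng/ml TNFα and 0.25 ng/ml IL-1β together, begun at 96 hr and kept up for 24 hr. Ribo-seq read fragments of 26 to 34 nt that ribosomes had shielded from RNase-I, from a portion of the same lysates as the RNA-seq. The age and strain of the mice, and whether cells were pooled, are not given in the sources used here.

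How many ribosomes an mRNA carries depends on how often translation starts on it and how fast ribosomes move along and leave it. Starting needs the initiation factor eIF2 in its GTP-bound form, which the exchange factor eIF2B restores, and Eif2b5 encodes the catalytic subunit of eIF2B. Mutations of eIF2B cause vanishing white matter disease, in which astrocytes are among the affected cells. TNFα and IL-1β act on astrocytes largely through the transcription factor NF-kB and switch on chemokine, cytokine and acute-phase genes. The question addressed was in which mRNAs the load of ribosomes shifted, beyond what the change in mRNA gave.

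For each gene and comparison the authors give 1 fold over all libraries, so no gene was tested, the folds carry no error, and the depth per library is unknown. A log2 fold of 1 in either direction was used as a descriptive threshold. Of 22 astrocyte markers, 21 had a fold and 14 were also among the transcripts for which the authors deposited an elongation read density, from 0.12 for Gfap to 9.39 for Vim in the authors' deposited table. Aldh1l1 was at 2.07, Slc1a3 at 1.51 and Sox9 at 0.47, while the neuronal Stmn2 was at 0.25 and the ependymal Foxj1 at 0.13, both above Gfap, in the authors' deposited table. Of 15 microglial and macrophage markers, 5 had a fold and 0 had a density. Fibroblast and mural genes were also present, 6 of 13 with a density, among them Acta2 at 8.37 and Col1a1 at 4.43 in the authors' deposited table. In such bulk cultures, fewer cells of a type and less RNA per cell cannot be told apart.

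The folds are relative, with medians near 0 in every column, so a change of ribosome load common to all mRNAs would not show in them. Relative to the other mRNAs, most genes differed little in RD. The median RD fold was 0.01 (quartiles -0.15 to 0.18), and the width between these quartiles was 0.334, against 0.584 for the mRNA fold and 0.613 for the RPF fold. An RD fold at or above 1 was found for 74 genes (0.606% of the genes) and one at or below -1 for 134 (1.10%). The mRNA fold was at or beyond 1 for 1830 genes (15.0%), with 7.73% of genes past it upwards and 7.27% downwards. The RPF fold was at or beyond 1 for 1858 (15.2%), with 7.32% above and 7.90% below. With an RD fold between -1 and 1, 722 genes were at or above 1 in both mRNA and RPF and 719 at or below -1 in both. Footprints thus mostly followed the mRNA. At a threshold of 0.5, 9.11% of genes were past it in RD. In WT astrocytes of the authors, whose libraries are in no group here, 380 genes (3.11%) were at or beyond an RD fold of 1 and the width between the quartiles was 0.551. The test of a difference between the genotypes would need replicate values and could not be made.

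**Figure D1:**
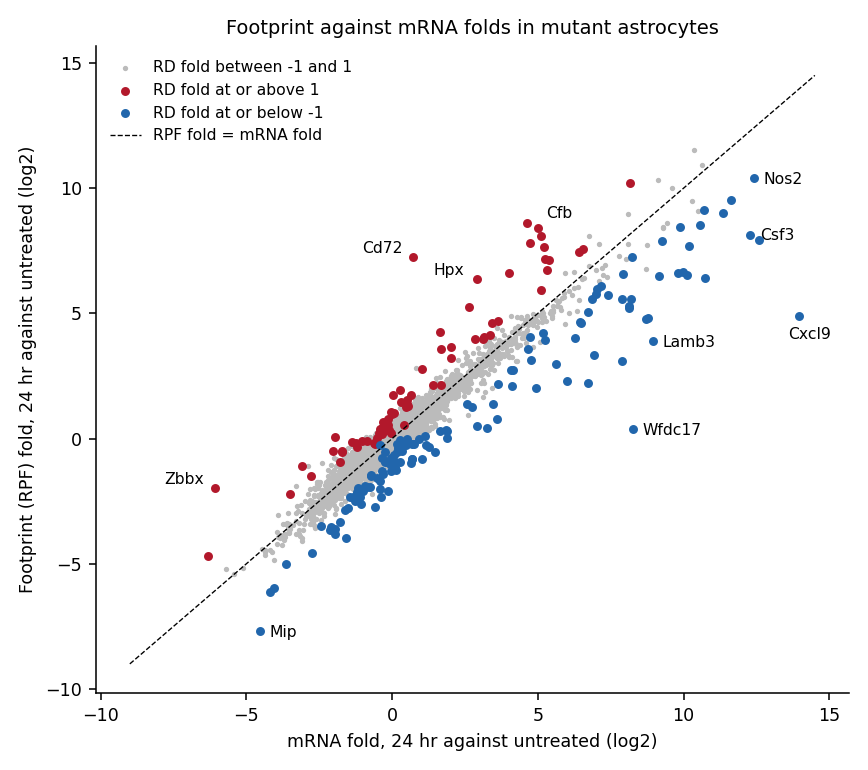
Each point is a gene, with its mRNA fold (x axis, log2) and its RPF fold (y axis, log2) in mutant astrocytes at 24 hr, and the dashed line marks equal folds. Genes with an RD fold at or above 1 (74, red, of which 1 lacks an mRNA fold and is not drawn) lie above the line, and the 134 at or below -1 (blue) lie below it apart from Itga9, many at high mRNA folds.

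The RD column was close to the simple difference of RPF and mRNA folds. Across the 12204 genes with both, which share all libraries, Pearson's r was 0.926 and Spearman's rho 0.961, and RD exceeded the difference by a median of 0.035. Of 22 genes with a difference at or beyond 3 in size, 20 had an RD fold smaller in size. Choosing the genes by the difference favours this result, and a gene with an extreme RD fold could have the smaller difference, as Itga9 below. By the difference, 54 genes (0.442%) lay at 1 or higher and 120 (0.983%) at -1 or lower, 1.43% in all. Of the 74 genes at or above an RD fold of 1, 40 (54.1%) were also at or above 1 by the difference, as were 97 (72.4%) of the 134 in the other direction. In 5 genes the 2 measures had opposite signs with either of them at or beyond 1. Itga9, an integrin subunit, had an RD fold of -4.23 and a difference of 0.17 from the authors' deposited table. For Adgre1, the macrophage antigen F4/80, RD was -0.69 and the difference 1.99, from the authors' deposited table. Acod1, an enzyme making itaconate, Ikzf1, a lymphoid transcription factor, and Dnah11, an axonemal dynein, were the others.

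The sequences around the start codon are shown for the 3 lowest and the 3 highest RD folds among genes where both measures passed 1, predicted gene models aside, since this is where translation of each mRNA begins. They come from the GENCODE M21 transcript with the longest coding sequence (GRCm38) and give 12 bases before the start codon, the start codon in capitals, and 3 bases after it.
Cxcl9: ctcagctctgccATGaag
Lamb3: cactggctcaggATGaca
Serpina3c: agaacagacaagATGgcc
Zbbx: cttagttacaaaATGgca
Cfb: ctggtgctttccATGaca
Hpx: ttgcagctcagcATGgct
The windows lie at chr5:92328018-92328035 (minus strand), chr1:193303508-193303525 (plus), chr12:104152072-104152089 (minus), chr3:75139605-75139622 (minus), chr17:34862107-34862124 (minus) and chr7:105600085-105600102 (minus), in the order listed. Bases that favour start codon recognition in mammals are a purine at position -3 and a G at position 4, counting the A of ATG as 1. Serpina3c, Zbbx and Hpx have both, Cxcl9 and Lamb3 have the purine, and Cfb has neither. Of 11592 genes with such a window, 45.7% have both bases, as do 37 of 64 genes (57.8%) at or above an RD fold of 1 and 39 of 120 (32.5%) at or below -1. Over all genes the median RD fold was 0.01 both with and without the pair of bases, so over the whole table the medians with and without it lay together.

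Of the 15 lowest RD folds among named genes where both measures passed -1, 13 belonged to genes with an mRNA fold at or above 1, which footprints did not match. Of the 15 highest, chosen likewise past 1, 10 also had an mRNA fold at or above 1, against 7.73% of all genes. Cxcl9, a T-cell attracting chemokine (chromosome 5, 92321347 to 92328079, GRCm38), had an mRNA fold of 13.97, an RPF fold of 4.91 and an RD fold of -7.14 in the authors' deposited table. Lamb3, a laminin chain of basement membranes, was at 8.94 in mRNA, 3.90 in RPF and -4.29 in RD in the authors' deposited table. Serpina3c, a serine protease inhibitor, was at 6.00, 2.31 and -3.94 in the same order in the authors' deposited table. Each of these mRNAs thus had more footprints after treatment than before, but fewer per mRNA. Ch25h, which makes 25-hydroxycholesterol, had an mRNA fold of 12.60 and an RD fold of -3.35 in the authors' deposited table. The granulocyte growth factor Csf3 had an RD fold of -2.86 at an mRNA fold of 12.29, and Cxcl11, another ligand of the receptor of Cxcl9, -3.31 at 10.10, in the authors' deposited table. GENCODE M21 lists Cxcl11 as a polymorphic pseudogene, a gene that is intact in some strains only.

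Other genes of this kind were Cacna1i, a calcium channel subunit, with an RD fold of -3.72, Lilrb4a, an inhibitory receptor of myeloid cells, with -3.62, and Slc36a2, an amino acid transporter, with -3.58 in the authors' deposited table. Arap3, a regulator of small GTPases, had -3.54, Neurl3, a ubiquitin ligase, -3.07, and Oas1a, an antiviral enzyme, -2.71 in the authors' deposited table. Their mRNA folds lay between 5.60 for Oas1a and 10.72 for Lilrb4a in the authors' deposited table. Wfdc17, a small secreted protein of the whey acidic protein family, stood apart, with an mRNA fold of 8.26, an RPF fold of 0.37 and an RD fold of -3.45 in the authors' deposited table. Mrto4, a ribosome assembly factor, and Actg2, smooth muscle actin, had mRNA folds of 0.64 and 0.26 and were at -3.50 and -2.90 in RD in the authors' deposited table. These 2 were thus low in RD without a large mRNA change. Their RPF folds were -0.99 and -0.96, and their differences, -1.64 and -1.21, were smaller in size than the RD folds, from the authors' deposited table.

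The highest RD folds belonged to genes whose footprints outran the mRNA. Cfb, the complement factor B of the alternative pathway (chromosome 17, 34856374 to 34862518, GRCm38), had an mRNA fold of 5.01, an RPF fold of 8.41 and an RD fold of 3.37 in the authors' deposited table. Hpx, the haem-binding plasma protein hemopexin, was at 2.90, 6.35 and 3.19 in the same order in the authors' deposited table. Hdc, which makes histamine from histidine, was at 1.63, 4.24 and 2.74 in the authors' deposited table. All 3 were thus raised in mRNA and further raised in ribosomes per mRNA. Far2, a fatty acyl-CoA reductase, had an RD fold of 2.79, Fam169a 2.99, S100a8, a subunit of calprotectin, 2.42, and Zmynd15 2.28 in the authors' deposited table. Madcam1, an adhesion ligand for leukocytes, had 2.11, Mmp9, a gelatinase, 1.97, and Serpina3g 1.79 in the authors' deposited table. The mRNA folds of these 7 genes lay between 2.65 for Fam169a and 8.14 for Madcam1 in the authors' deposited table.

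Cd72, a B-cell co-receptor, had an mRNA fold of only 0.71 beside an RPF fold of 7.25, and its RD fold of 2.61 was far below the difference of 6.54, from the authors' deposited table. Zbbx had the highest RD fold, 3.60, while both its mRNA (-6.07) and its RPF fold (-1.97) were low in the authors' deposited table. Its RD therefore reflects mRNA that was lower by more than the footprints were. Several of the genes in the extremes, such as Lilrb4a, Cd72 and S100a8, are known from leukocytes. Of the marker list, the 5 microglial and macrophage markers with a fold had mRNA folds of up to 1.89 (Cd68) and RD folds of -0.69 (Adgre1) to 0.17 (Lyz2) in the authors' deposited table, with a median RD fold of -0.45, and their part in these results was not tested.

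How RD went with the size of the mRNA change was examined over all genes, bearing in mind that the mRNA change is itself part of RD, so that an error in it moves the 2 in opposite directions. Among 8275 genes with an mRNA fold between -0.5 and 0.5 the median RD fold was 0.02. Among 649 genes with an mRNA fold of 1 to 3 it was -0.05, and among 218 genes at 3 to 6 it was -0.09. Of these 218 genes, 14 were at or below -1 (1.10% of all genes) and 15 at or above 1 (0.606% of all). The 76 genes at or above an mRNA fold of 6 had a median of -1.12 (quartiles -2.14 to -0.25), with 39 at or below -1 and 3 at or above 1. The shift of the median was therefore large in the most strongly induced mRNAs and small in moderately induced ones. Over the same 76 genes the WT RD fold of the authors' deposited table had a median of -1.19, with 42 at or below -1. Levels before treatment were not in the files used here, so how many reads stand behind the untreated values of these genes is unknown.

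**Figure D2:**
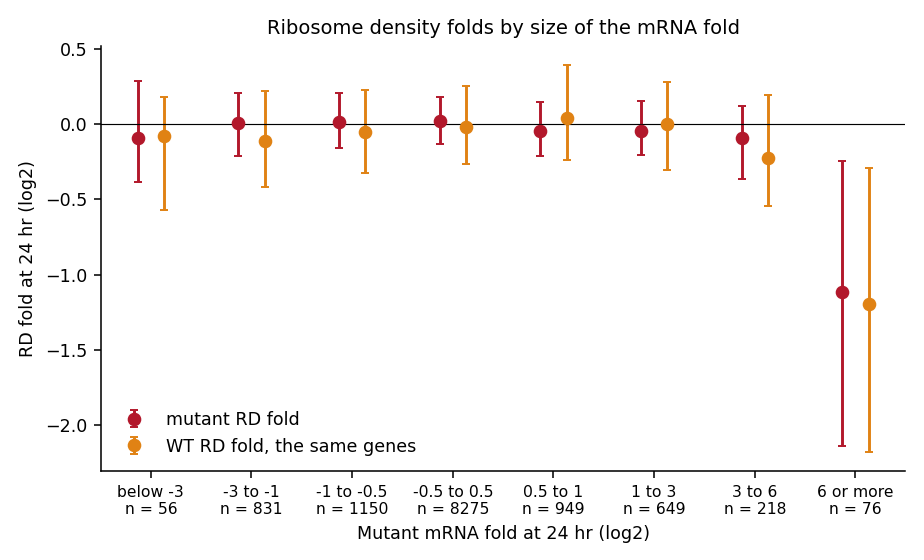
Median RD fold at 24 hr (points, log2, with bars from the lower to the upper quartile of the genes) in classes of the mutant mRNA fold, for the mutant (red) and for WT astrocytes over the same genes (orange). Medians lie between -0.23 and 0.04 in all classes but the 76 genes at or above 6, where they are -1.12 and -1.19.

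The genes past 1 were then sorted by what their mRNA and footprints did. Of the 74 genes at or above an RD fold of 1 (0.606% of all), 28 had an mRNA fold at or above 1, 14 at or below -1 and 31 between, and 1 had none. Of the 134 at or below -1 (1.10%), 65 had an mRNA fold at or above 1, 22 at or below -1 and 47 between. Low RD thus lay most often on raised mRNAs, among them those of the strongly induced class above. In no gene did an mRNA fold at or beyond 1 meet an RPF fold at or beyond 1 of the opposite sign.

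Footprints were raised at nearly constant mRNA (mRNA within 0.5 of 0, RPF at or above 1) in 14 genes. Phpt1, a histidine phosphatase (chromosome 2, 25573430 to 25575224, GRCm38), had an mRNA fold of 0.03, an RPF fold of 1.73 and an RD fold of 1.92 in the authors' deposited table. Mtus2, a microtubule-binding protein, was at 0.28, 1.94 and 1.87 in the same order in the authors' deposited table. Map3k14, the kinase NIK of the noncanonical NF-kB pathway, had an RD fold of 1.15, and Il15, a cytokine that sustains NK and T cells, 1.07 in the authors' deposited table. Leprotl1, an endosomal protein, had 1.20, and Pet100, an assembly factor of cytochrome c oxidase, 1.06 in the authors' deposited table. In these genes the footprint signal changed with little change in mRNA.

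The opposite, lower footprints at nearly constant mRNA, was seen in 18 genes. Egflam, the matrix protein pikachurin, had an mRNA fold of -0.14 and an RD fold of -2.01, and Kcnh2, a potassium channel, 0.14 and -1.85, in the authors' deposited table. The RD fold was -1.82 for Dach2, a transcription cofactor, -1.78 for Fam198a, -1.66 for Dpp10, a potassium channel partner, and -1.42 for Plxnc1, a semaphorin receptor, in the authors' deposited table. These 4 had mRNA folds of -0.42 to 0.10 in the authors' deposited table.

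Raised mRNA with footprints held within 0.5 of 0 was found in 26 genes, with a median RD fold of -0.85. Besides Wfdc17 these included Trf, the iron carrier transferrin, whose mRNA fold was 1.88, RPF fold 0.00 and RD fold -2.04 in the authors' deposited table. Ltf, the iron-binding lactoferrin, had an mRNA fold of 3.25 and an RD fold of -1.53, and Osbp2, an oxysterol-binding protein, 1.25 and -2.44, in the authors' deposited table. Macc1 and Gfra2, a receptor of the GDNF family, both had an RD fold of -1.55 in the authors' deposited table. Lowered mRNA with footprints held was found in 25 genes, with a median RD fold of 0.69. Dfna5, the pore-forming gasdermin E, led them with an mRNA fold of -1.96 and an RD fold of 2.08, followed by Polq, a DNA repair polymerase, with -1.38 and 1.44, in the authors' deposited table. Cenph and Chrm2, a centromere protein and a muscarinic receptor, had RD folds of 0.93 and 0.88, and Nkain4 and Ptar1 1.03 and 1.02, in the authors' deposited table.

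Where mRNA and footprints were both at or above 1, RD was at or above 1 in 28 genes, at or below -1 in 52 and between in 722. Where both were at or below -1, the numbers were 5, 22 and 719. The 5 were Zbbx, Elfn1, Fgfbp1, Opn4 and Kcnj12, with RD folds from 1.06 (Kcnj12) to 3.60 (Zbbx) in the authors' deposited table. Among the 22 were Ccna1, a cyclin, at -2.46, Mip, the lens aquaporin, at -2.44, Faah, which breaks down endocannabinoids, at -2.15, and Wnt2b at -1.93 in the authors' deposited table. Myom1 was at -1.82 and Arhgef39 at -1.75 in the authors' deposited table. For Ccna1 and Mip the RD fold at 48 hr, which shares the untreated libraries, was 0.55 and 0.25 in the authors' deposited table, so neither was past -1 at 48 hr.

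The classes of inflammatory genes are given next, ligands first. The 17 chemokines had a median mRNA fold of 8.74 and a median RD fold of -0.44 (quartiles -0.93 to -0.00), against 0.01 over all genes, with 4 at or below -1 (1.10% of all genes) and 0 at or above 1 (0.606% of all). After Cxcl9 and Cxcl11, the lowest were Ccl20, the ligand of the receptor CCR6, at -1.77, and Cxcl5, a ligand for neutrophils, at -1.39 in the authors' deposited table. These 4 had mRNA folds from 10.10 (Cxcl11) to 13.97 (Cxcl9) in the authors' deposited table. Of all 76 genes at or above an mRNA fold of 6, 39 were at or below -1 and 3 at or above 1. Chemokines with large mRNA folds were not all low in RD, since Ccl5 had an mRNA fold of 10.62 and an RD fold of 0.43 in the authors' deposited table. Cxcl10 had an RD fold of -0.93 and Ccl2 -0.29 in the authors' deposited table. Without the genes at or beyond an mRNA fold of 3 in size, the chemokine median was 0.14.

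**Figure D3:**
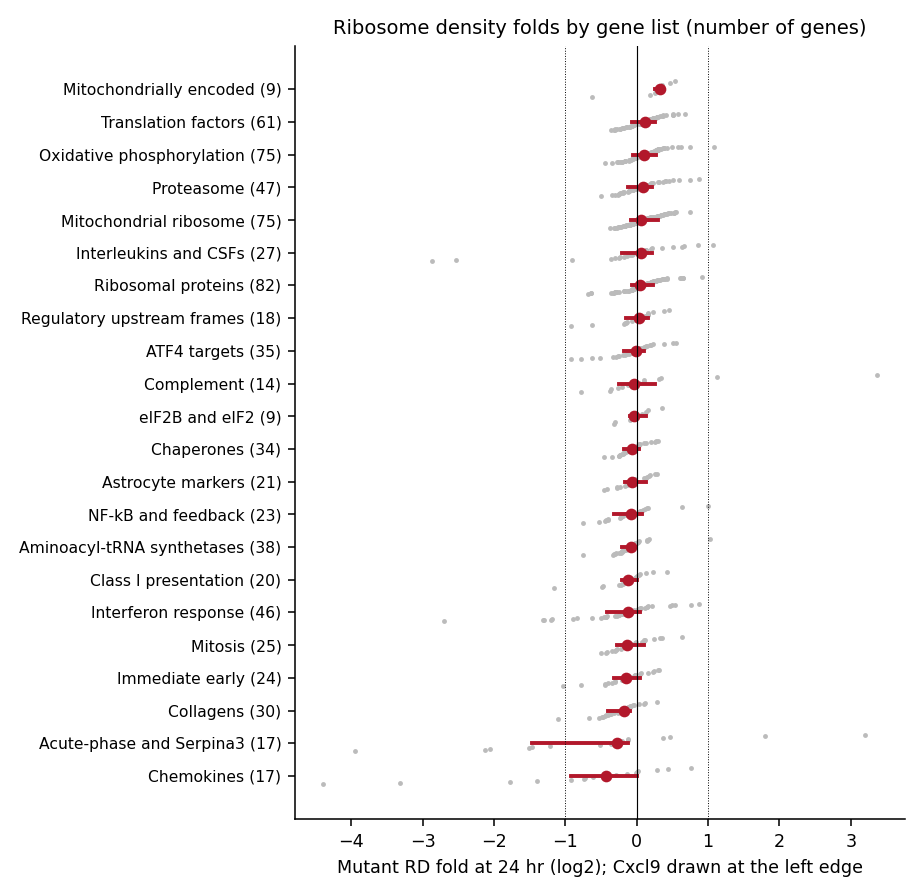
RD folds (x axis, log2) of the members of 22 gene lists at 24 hr in the mutant, with each gene as a grey point, the median as a red dot and the quartiles as a red bar, ordered by the median. Cxcl9, at -7.14, is drawn at the left edge, and of the lists drawn chemokines and acute-phase genes have the lowest medians (-0.44 and -0.28) and the widest spread, and the other list medians lie between -0.18 and 0.33.

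Of 27 interleukins, colony stimulating factors and their receptors, the median RD fold was 0.05, with Csf3 (above) and Il19 at or below -1 and Il15 at or above 1. Il19, of the interleukin-10 family, had an RD fold of -2.53, and Il6 one of -0.90, in the authors' deposited table. Acute-phase and Serpina3 genes spread most: of 17, 6 were at or below -1 (1.10% of all genes) and 2 at or above 1 (0.606% of all), with a median of -0.28. The low end held Saa3, an acute-phase apolipoprotein, at -2.13, and the high end Hpx at 3.19 in the authors' deposited table. The 6 low genes had mRNA folds from 6.00 (Serpina3c) to 11.64 (Saa3) in the authors' deposited table. They thus belonged to the class at or above 6, in which 39 of all 76 genes were at or below -1 and 3 at or above 1. The Serpina3 cluster on chromosome 12 alone ran from -3.94 for Serpina3c to 1.79 for Serpina3g in the authors' deposited table. These are near-identical copies between which reads could be split, and M21 lists Serpina3h, at -2.06 in the authors' deposited table, as a transcribed pseudogene, so values of single members are uncertain. Without the genes at or beyond an mRNA fold of 3 in size the median of this list was 0.09.

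The 46 interferon response genes, all at or above an mRNA fold of 1, had a median RD fold of -0.12, with 5 at or below -1 (1.10% of all genes). Among all genes with mRNA and RPF folds at or above 1, the numbers given above were 52 at or below -1, 722 between and 28 at or above 1. Besides Oas1a these included Irf7, a transcription factor of the interferon response, at -1.32, and the GTPases Gbp6 and Gbp4 at -1.30 and -1.20 in the authors' deposited table. Without the genes at or beyond an mRNA fold of 3 the median was 0.02. The 20 genes of class I antigen presentation had a median of -0.12, and 1 was past the threshold, H2-Q6 at -1.16 in the authors' deposited table, itself one of a family of close copies. The 23 NF-kB subunits, inhibitors and feedback genes had a median of -0.08 at a median mRNA fold of 3.14. Of them 0 were at or beyond 1 in RD, against 1.70% of all genes. Traf1, a signal adaptor of TNF receptors, came nearest at 1.00 after rounding, followed by Tnip1 at -0.75 and Nfkbiz at 0.63 in the authors' deposited table. The NF-kB genes thus changed in footprints about as much as in mRNA.

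Complement genes had a median of -0.04 over 14, with Cfb and the receptor gene C3ar1 at or above 1. C3ar1 had an RD fold of 1.12 but a difference of 0.24 from the authors' deposited table. Among 15 immunometabolic enzymes the median was -0.15 and the extremes were known already, Ch25h low and Far2 and Hdc high, joined by Nos2, the inducible nitric oxide synthase, at -2.04 in the authors' deposited table. Among 33 metalloproteinases and inhibitors Mmp12 was at -1.97 and Mmp9 at 1.97 in the authors' deposited table, with a median of -0.08. With mRNA folds of 12.42 and 11.34 from the authors' deposited table, Nos2 and Mmp12 belong to the strongly induced class.

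The translation apparatus that eIF2B serves was described next. The 9 genes of eIF2B and eIF2 subunits had RD folds from -0.32 for Eif2b2 to 0.35 for Eif2s1, and the mutated Eif2b5 itself was at -0.09, in the authors' deposited table. Between them lay Eif2b4 at -0.30, Eif2s3x at -0.06, Eif2b3 at -0.04, Eif2b1 at 0.07, Eif2s3y at 0.13 and Eif2s2 at 0.15 in the authors' deposited table. None of these 9 genes was thus near the threshold, which 1.70% of all genes reached. The eIF2α kinases and phosphatase subunits lay between -0.06 for Eif2ak2 and 0.23 for Ppp1ca in the authors' deposited table, with the kinases Eif2ak3 (PERK) at -0.03, Eif2ak1 (HRI) at 0.04 and Eif2ak4 (GCN2) at 0.17. The phosphatase subunits Ppp1cc and Ppp1cb were at -0.06 and 0.10 in that table of the authors. When eIF2 is limiting, mRNAs with regulatory upstream reading frames such as Atf4 are known to be translated more. The 18 such mRNAs measured had a median RD fold of 0.03, 9 above 0 and 0 at or beyond 1, against 1.70% of all genes. Atf4, the transcription factor of the integrated stress response, was at 0.16, Ppp1r15a, which directs dephosphorylation of eIF2α, at 0.16, and Atf5 at -0.07 in the authors' deposited table. Ddit3 (CHOP) was at -0.63 and Cebpb at -0.92 in the authors' deposited table. The highest of the 18 were Amd1, of polyamine synthesis, at 0.45 and the ubiquitin hydrolase Uchl1 at 0.38 in the authors' deposited table.

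The other members of this list were Ibtk at 0.23, Mdm2 at 0.15, Sat1 at 0.12, Ppp1r15b at 0.10 and Bace1 at 0.07 in the authors' deposited table. Below these lay Eprs at 0.00 when rounded, Slc35a4 at -0.01, Slc7a1 at -0.13, Cebpa at -0.15, Azin1 at -0.16 and Ifrd1 at -0.17, with values from the authors' deposited table. The 35 ATF4 target genes had a median mRNA fold of 0.41 and a median RD fold of -0.01. Of them 0 were at or beyond 1, against 1.70% of all genes. The extremes were Cebpb and Trib3, a pseudokinase, at 0.56 in the authors' deposited table. Over all genes, RD varied little with the number of upstream ATGs in the annotated leader, with a median of 0.01 for 5429 leaders with 0 of them, -0.01 for 1534 with 3 to 5 and 0.00 for 684 with 6 or more. The 38 aminoacyl-tRNA synthetase genes had a median of -0.08, with 9 above 0. Lars2, the mitochondrial leucine enzyme, was at 1.03 and Sars2 at -0.75 in the authors' deposited table.

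The ferritin mRNAs, whose translation is held back by iron regulatory proteins bound to a leader hairpin when iron is low, were high among the iron-responsive mRNAs. Fth1, the ferritin heavy chain (chromosome 19, 9980598 to 9985098, GRCm38), had an mRNA fold of 1.53, an RPF fold of 2.21 and an RD fold of 0.74 in the authors' deposited table. Ftl1, the light chain (chromosome 7, 45457944 to 45459884, GRCm38), was at 0.21, 0.63 and 0.47 in the same order in the authors' deposited table. The element was searched in transcript sense as the loop CAGTGN, with the last base not G, between 5 paired bases on each side (G-U pairs allowed) and with a C before them. The matches in the leaders of Fth1 and Ftl1 and the first match in the trailer of Tfrc are shown with the loop in capitals.
Fth1: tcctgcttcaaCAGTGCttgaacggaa
Ftl1: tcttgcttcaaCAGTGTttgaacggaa
Tfrc: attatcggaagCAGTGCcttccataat
They lie at chr19:9982733-9982759 (plus strand), chr7:45459780-45459806 (minus) and chr16:32631220-32631246 (plus). Such a match was found in 11 of 11984 leaders (0.0918%) and 63 trailers (0.526%), and the median RD fold of these genes was 0.06 in both. Tfrc, the transferrin receptor, has 4 matches in its trailer, where the element is known to act on mRNA stability, and an RD fold of -0.06 in the authors' deposited table. The iron importer Slc11a2 and the hypoxia factor Epas1, with 0 matches in the transcripts used, were at -0.14 and -0.01 in the authors' deposited table. Of the genes described here, the higher values were thus those of the 2 ferritin genes.

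Ribosomal protein genes had a median RD fold of 0.04 over 82, with 0 at or beyond 1, against 1.70% of all genes. By subunit, the median was 0.00 (quartiles -0.09 to 0.14) for 48 large-subunit and 0.19 (-0.03 to 0.31) for 34 small-subunit genes, so the quartiles overlapped. In the same order the medians were 0.49 and 0.53 in WT at 24 hr, and -0.32 and -0.24 in the mutant at 48 hr. Among the members named here, Rpl26 and Rps27l both rounded to 0.65, while Rps4l was lowest at -0.68, in the authors' deposited table. Rpl36 and Rpl23a were each at -0.64 in the authors' deposited table. Pseudogene copies make counts of single ribosomal protein genes uncertain.

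The authors deposited their ribosomal protein list in sections, 54 genes headed as translationally regulated and 23 as regulated by mRNA abundance. Since every gene of the first section had a WT RD fold above 0.3, the section follows from the WT data and its WT values are no independent evidence. In the mutant the 54 genes had a median RD fold of 0.03 (quartiles -0.08 to 0.22), with 31 above 0, against a WT median of 0.67. Their median mRNA fold was 0.51 in the mutant and 0.07 in WT, and the median RPF fold 0.43 and 0.77. In the mutant, then, more ribosomal protein mRNA came with an RD that differed little from that of the other mRNAs. The 23 other genes had a median RD fold of 0.14 in the mutant and 0.04 in WT, and median mRNA folds of 0.44 and 0.45. Their lowest WT mRNA fold was 0.17 and their highest WT RD fold 0.28, so the WT values of this section are no independent evidence either.

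**Figure D4:**
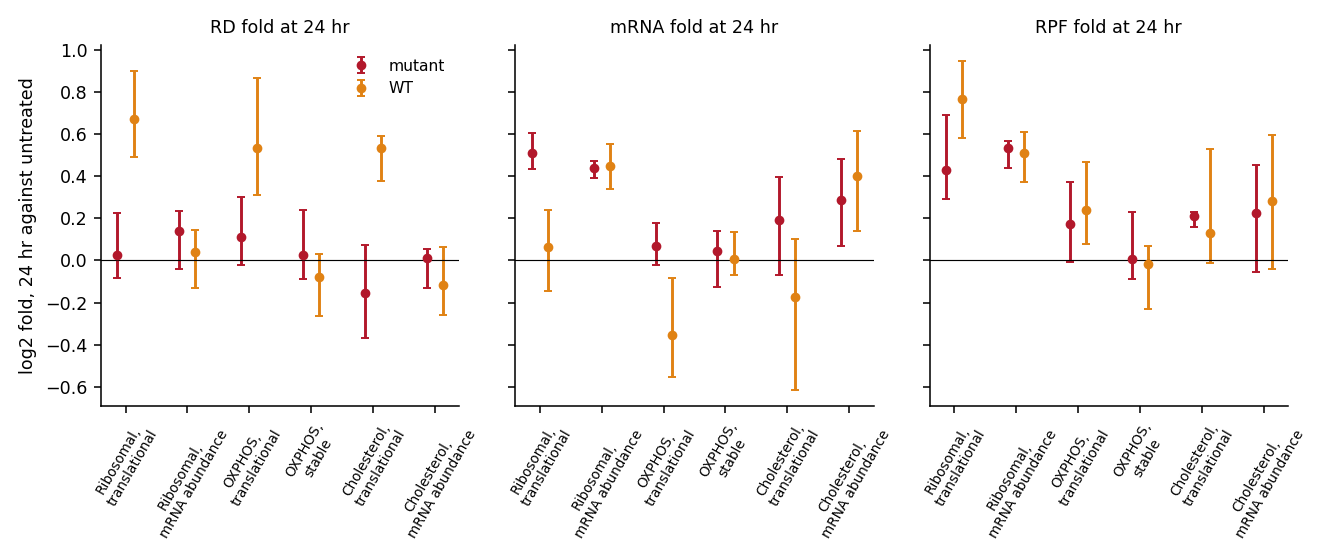
Median folds at 24 hr (points, log2, with bars from the lower to the upper quartile of the genes) in the sections of 3 gene lists of the authors, for RD, mRNA and RPF, in the mutant (red) and WT (orange). In the sections headed translational, which follow from WT values, the mutant RD medians are 0.03, 0.11 and -0.16 and the WT medians 0.67, 0.54 and 0.53.

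Genes of oxidative phosphorylation were also deposited in sections, and here the mutant RD median was the higher one in the translational section. In the authors' section of 48 translationally regulated genes, again with all WT RD folds above 0, the mutant median was 0.11, with 33 above 0, and the WT median 0.54. The 27 genes of the stable section had medians of 0.02 and -0.08. Their highest WT RD fold was 0.09, so the WT values of both sections are no independent evidence. The authors' deposited table gives a signed p of 0.001 for the first section in the mutant and 6e-19 in WT, and 0.3 and 2e-28 for the translational section of ribosomal proteins, with no test named. By complex, the 14 cytochrome c oxidase genes had the highest mutant median, 0.28, with 12 above 0, followed by ATP synthase at 0.16 over 18 and complex I at 0.11 over 36. The authors' oxidative phosphorylation list had a median coding length of 486 nt. Among all genes with coding lengths of 114 to 807 nt the mutant median RD fold was 0.18, with 74.6% above 0. The medians of ATP synthase and complex I were thus not above that of short genes in general. Medians by complex were not corrected for coding length. Ndufs6, a complex I subunit, was the single gene of the list past the threshold, at 1.08 in the authors' deposited table. Ndufc1 was at 0.75, Sdhaf2, an assembly factor of complex II, at 0.62, and Ndufa4 at 0.58 in the authors' deposited table.

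Mitochondria have their own ribosomes, and Ribo-seq fragments of mitochondrial genes are counted here. Whether these fragments came from ribosomes was not tested. For the 9 protein-coding genes of mitochondrial DNA that had a fold, not the full set, the median RD fold was 0.33, with 8 above 0, at a median mRNA fold of 0.11. They ran from 0.19 for mt-Cytb to 0.53 for mt-Nd6, apart from mt-Atp8 at -0.63, in the authors' deposited table. Their WT median was -0.09. The mitochondrial tRNA gene mt-Tp, which is not translated and was chosen after its value was seen, was at -1.16 in the authors' deposited table. Reading frames of mt-Atp8 overlap those of its neighbour on the same transcript, so its reads are hard to assign. The 75 mitochondrial ribosomal protein genes had a median of 0.06, the highest being Mrpl57 at 0.74 in the authors' deposited table.

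The authors' section of 9 translationally regulated genes of cholesterol synthesis had a mutant median of -0.16, with 3 above 0, and a WT median of 0.53. Mvk and Mvd, enzymes of the mevalonate pathway, were at -0.60 and -0.54 in the mutant and both at 0.59 in WT in the authors' deposited table. The 47 proteasome genes had a median of 0.09, with the core at 0.15 over 17 and the cap at 0.00 over 21. Psmd10 and Psma3 were highest at 0.87 and 0.75 in the authors' deposited table. The 61 translation factors had a median of 0.12, with 39 above 0.

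Other lists had medians below 0 or near it. The 31 integrin and laminin genes had a median RD fold of 0.03, with 17 above 0, and the authors' 34 DNA replication genes one of -0.02, with 16 above 0. The 30 collagen genes had a median RD fold of -0.18, with 4 above 0, the lowest being Col26a1 at -1.11 in the authors' deposited table. The 25 mitotic genes had a median of -0.13 at a median mRNA fold of -1.43. Immediate early genes had a median of -0.15 over 24, with Nr4a2 at -1.03 and Junb at -0.78 in the authors' deposited table. The 21 astrocyte markers had a median RD fold of -0.07, from Kcnj10, a potassium channel, at -0.46 to Nes at 0.28 in the authors' deposited table. Gfap had an mRNA fold of -1.58 and was at -0.28 in RD in the authors' deposited table. Astrocyte markers thus differed in mRNA more than in ribosome load.

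What the members share beyond function was sought in the annotation. Coding length went with RD: from the shortest to the longest of 5 equal classes of 11984 coding transcripts the median RD fold was 0.18, 0.06, -0.05, -0.09 and -0.00, and Spearman's rho across genes was -0.265. The shortest class spans coding lengths of 114 to 807 nt. Its median was positive in all 5 classes of GC content, from 0.23 to 0.08. Chemokines, with a median coding length of 312 nt, were low in RD all the same. When the trend with length was taken out, the median of the ribosomal protein list of the authors was -0.10 and that of oxidative phosphorylation -0.02, both below 0 (before it, 0.09 and 0.11).

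**Figure D5:**
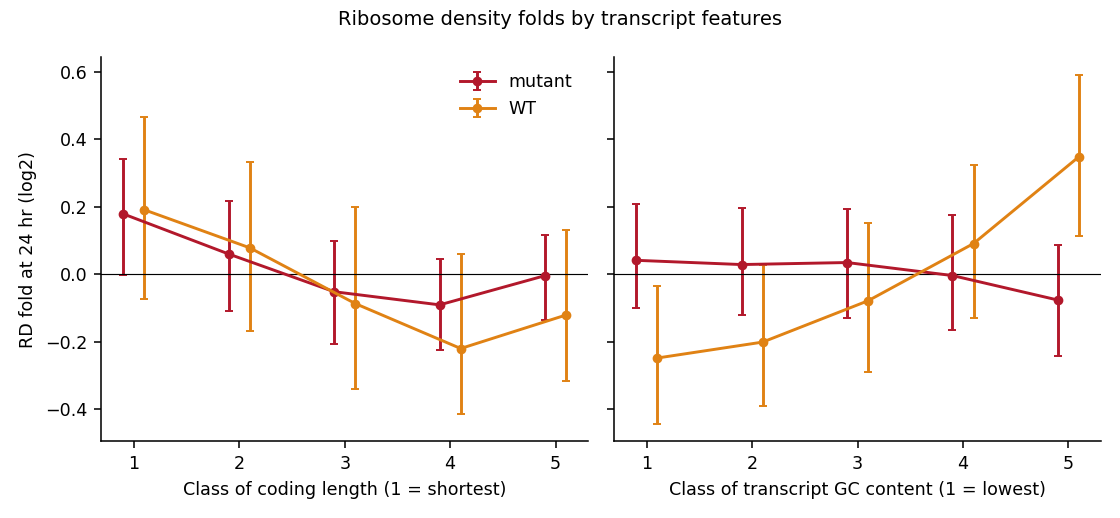
Median RD fold at 24 hr (points, log2, with bars from the lower to the upper quartile of the genes) by 5 equal classes of coding length and of transcript GC content, in the mutant (red) and WT (orange). Both genotypes are highest in the shortest class (0.18 and 0.19), and by GC content the mutant goes from 0.04 to -0.08 and WT from -0.25 to 0.35.

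GC content of the transcript had a rho of -0.161 with RD in the mutant and of 0.518 in WT, across the same genes, and the genes of a genotype share its libraries. With the 48 hr RD fold of the mutant, which shares the untreated libraries, the rho of GC content was -0.511. That of coding length was 0.051 at 48 hr, against -0.265 at 24 hr. Both trends thus differed between the 2 times within the mutant as well, and the reason was not tested. From the lowest to the highest class of GC content the mutant median went from 0.04 to -0.08 and the WT median from -0.25 to 0.35. Taking out the GC trend left the median of the authors' ribosomal protein list in the mutant at 0.08, and the WT folds were not corrected. Leader length had a rho of 0.024 with RD and trailer length one of 0.079. Noncoding RNA genes were more often far out: 14 of 178 (7.87%) were at or beyond 1, against 1.70% of all genes, and 6 of 34 pseudogenes (17.6%). The snoRNA gene Snora68, chosen after its value was seen, had an RD fold of -4.39 and a difference of -0.68 from the authors' deposited table. Fragments of such RNAs need not come from ribosomes.

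Genes past the threshold were rare among the transcripts with the authors' IS score, given per transcript under an abbreviation that is not explained there. Of all genes 2292 (18.8%) had one, but of the 208 at or beyond an RD fold of 1 in either direction (1.70%) only 6 did. These were Phpt1, Pet100, Lars2, Grcc10, Trf and P3h2, the last at an RD fold of -1.94 in the authors' deposited table. Within the scored transcripts, 0.262% were at or beyond 1, and outside 2.04%. The scores are those left after filtration by the authors, and how the filter bears on these shares was not tested. The score was lower at 24 hr than untreated in 1439 transcripts and higher in 762. Of 5 equal classes by RD fold, these numbers were 332 and 112 in the highest and 258 and 184 in the lowest. The score and RD may share footprint reads, so this is a description.

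Against WT, the extremes overlapped in part. Of the 134 mutant genes at or below -1 (1.10%), 52 were at or below -1 in WT (38.8% of the mutant and 32.3% of the 161 WT genes, which were 1.32% of all), and 9 were at or above 1 there. Of the 74 at or above 1 (0.606%), 25 were at or above 1 in WT (33.8% of the mutant and 11.4% of the 219 WT genes, 1.79% of all), and 8 were at or below -1 there. Cxcl9 was at -4.82 and Cfb at 1.82 in WT in the authors' deposited table, in the direction of the mutant. S100a8, Mmp9 and Serpina3g were at -1.69, -1.70 and -1.84 in WT and at 2.42, 1.97 and 1.79 in the mutant, by the authors' deposited table. Hdc was at 0.03 and Lamb3 at -0.23 in WT in the authors' deposited table. These differences were not tested, since there is 1 fold per genotype.

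The 48 hr folds of the mutant share the untreated libraries and are set beside the 24 hr folds as values. Cxcl9 was at -7.14 and -6.77, Cfb at 3.37 and 2.79, Hpx at 3.19 and 2.60, and Hdc at 2.74 and 2.15 in the authors' deposited table, the earlier time first. Mrto4 was at -3.50 and 0.13, Faah at -2.15 and -0.52, and Zbbx at 3.60 and 1.41 in the authors' deposited table. Ftl1 went from 0.47 to -0.12 while Fth1 was at 0.74 and 0.67 in the authors' deposited table. The later time had 93 genes past 1 upwards (0.762%) and 151 past -1 downwards (1.24%).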

How the data were processed

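RNA-seq and Ribo-seq of mutant astrocytes were processed by the authors. Per the submitters' processing notes, the build was mm10 and the tools included TopHat2 and featureCounts. The labels give polyA RNA as the molecule while their protocol names a total RNA kit. Per the file headers, the deposited folds are log2 values of 24 hr or 48 hr over untreated cells for mRNA, RPF and RD. How RD was computed, which program made the folds and the depth per library are not given in the sources used here. The deposited IS score and the elongation density signal are the authors' values per transcript, and the signed p-values of gene lists are score-like values with no test named.

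From the folds, RPF minus mRNA, medians, quartiles and counts at or beyond 1 were computed, with no test, in Python 3.11.15, pandas 2.3.3 and numpy 2.4.6. Spreadsheet-damaged symbols (31) were replaced through their Ensembl identifiers. GENCODE M21 (GRCm38) gave coordinates for 12201 genes and, for 11984, the longest coding transcript and its sequences. The procedures were tested on simulated data. The members and the 48 gene lists were chosen with earlier results of these data known. Named were the 15 highest and 15 lowest RD folds where both measures passed 1, up to 6 genes with opposite signs and 6 per class, up to 4 per list with the largest RD fold, and the eIF2B, eIF2 kinase, iron and upstream frame lists, of which some members are not reported here. Predicted models (446) were counted only. Genes named beside these, for comparison, were chosen after their values were seen.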

Additional observations from a re-analysis of the deposited data

How the results depend on the processing

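No paired analysis was possible because the table holds pooled folds without a value per library, and for the same reason no replicate could be left out. By the RPF fold minus the mRNA fold, 54 genes lay past 1 and 120 past -1, near the 74 and 134 by RD. The count at or below -1 was 77 without genes at or beyond an mRNA fold of 3, so many of the low genes were strongly induced, while the count at or above 1 was 51. Among genes in the IS table only, the counts were 4 and 2, from fewer genes. A threshold of 0.5 gave 573 above and 539 below, and one of 2 gave 12 and 41. The chemokine median of -0.44 was -0.63 by the difference and 0.14 without genes at or beyond an mRNA fold of 3. Without those genes the medians of the acute-phase and interferon lists were also reversed, at 0.0892 and 0.0233. A correction for coding length was chosen after seeing the data. It put the chemokine median at -0.64, that of the ribosomal protein list of the authors at -0.10 and that of their oxidative phosphorylation list at -0.0202, down from 0.09 and 0.11. In the IS table alone the translation factor median was -0.0699 and the fibroblast and mural median 0.0608, against 0.12 and -0.12. Centring on the median and the GC correction changed no direction or call among the results recomputed under them (50 and 49).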
